A study of Mus musculus with 50 samples.

Results

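The genes described here are the 3 TGF-beta ligands (Tgfb1, Tgfb2 and Tgfb3), their 3 receptors (Tgfbr1, Tgfbr2 and Tgfbr3) and the 4 latent TGF-beta binding proteins (Ltbp1, Ltbp2, Ltbp3 and Ltbp4). They were found by gene symbol in the deposited expression table, and all 10 were present among its 35717 genes. Their messages were measured by RNA sequencing in 50 left ventricles of C57BL/6J mice aged 40 weeks. Some mice carried a transgene that overexpresses LARP6, an RNA-binding protein that binds collagen mRNAs, in cardiomyocytes (Tg), and the others were wild-type littermates (WT). Mice of each genotype were given angiotensin II (Ang II, a hormone that constricts vessels) at a dose of 1000 ng/kg/min, or saline, and hearts were taken after 21 days.

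The groups were 13 Tg Ang II libraries (7 female, 6 male), 12 Tg saline libraries (6 female, 6 male), 14 WT Ang II libraries (7 female, 7 male) and 11 WT saline libraries (5 female, 6 male). The promoter that drives the transgene and the number of founder lines are not given in the sources used here. Each library has a number of its own and was taken as a different mouse. Nothing states that outright, so the p-values measure the spread between libraries.

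Total counts per library ran between 53877439 and 91579342, and the 10 genes had between 67 fragments (the lowest library of Ltbp2) and 31349 (the highest of Ltbp4). For 2 libraries the letters of the column name give another genotype than the label. Library 329 is labelled WT Ang II male and library 847 Tg Ang II male, and both had Larp6 in the Tg range (1004 and 1119 scaled FPKM). The Larp6 level thus goes with the label of library 847, but with the column name and not the label of library 329. Larp6 stood at 588 to 1180 scaled FPKM in Tg Ang II hearts, 444 to 1631 in Tg saline hearts, 19.7 to 1004 in WT Ang II hearts and 5.61 to 63.7 in WT saline hearts, and the 1004 is library 329. Without library 329 the highest WT Ang II value was 62.9. Both libraries were kept under their labels, and the values of the 10 genes that they move most are also given without them. Levels throughout are scaled FPKM, that is fragments per kilobase of transcript scaled to sequencing depth, divided by a scaling factor for each library.

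TGF-beta is secreted as a latent complex, in which the ligand stays wrapped in its own propeptide. Most latent complexes are joined to a latent TGF-beta binding protein, which fastens them to matrix fibres until integrins, proteases or thrombospondin free the ligand. The free ligand brings a type II and a type I receptor kinase together, SMAD proteins carry the signal to the nucleus, and in the injured heart the pathway is known for turning fibroblasts into matrix-producing cells.

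The 4 genes of the set with the largest called difference in any comparison below were Ltbp2, Tgfb2, Tgfb3 and Ltbp3. Upstream sequence is shown for Ltbp2, Tgfb2 and Ltbp3, since the source used had no window for Tgfb3. The windows are the 250 bases before the RefSeq start site on GRCm38.p6, read 5′ to 3′ on the gene's own strand. Of the 10 genes, 8 had such a window. The Ltbp2 stretch is chr12:84876533-84876741 (minus strand), the Tgfb2 window chr1:186705990-186706239 (minus strand) and the Ltbp3 window chr19:5740650-5740899 (plus strand). For Ltbp2 the 209 bases outside the gene are printed, since GENCODE places the gene's start 41 bases farther out than RefSeq. Capitals mark matches on either strand to motif letters. These are CAGAC, known as the SMAD box, and TGANTCA, the site of AP-1 factors. CATTCC is the MCAT element bound by TEAD factors. GGGCGG is the GC box, and the TATA box was searched as TATAAA.
Ltbp2: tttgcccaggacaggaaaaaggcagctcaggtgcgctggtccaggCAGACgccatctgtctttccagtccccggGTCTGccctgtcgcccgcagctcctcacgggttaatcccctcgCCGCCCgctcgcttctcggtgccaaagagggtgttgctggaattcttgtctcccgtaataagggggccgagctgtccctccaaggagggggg
Tgfb2: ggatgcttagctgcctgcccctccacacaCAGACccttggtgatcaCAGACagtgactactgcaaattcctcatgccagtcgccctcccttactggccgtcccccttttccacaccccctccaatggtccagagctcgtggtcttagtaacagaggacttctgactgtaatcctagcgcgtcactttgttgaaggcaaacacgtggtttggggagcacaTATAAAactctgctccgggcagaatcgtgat
Ltbp3: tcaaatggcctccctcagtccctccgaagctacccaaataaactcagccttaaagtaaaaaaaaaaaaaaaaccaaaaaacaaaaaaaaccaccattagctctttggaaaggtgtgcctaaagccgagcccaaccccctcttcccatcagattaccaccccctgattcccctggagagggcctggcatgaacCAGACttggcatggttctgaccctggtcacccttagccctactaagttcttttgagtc
All of the 3 windows held CAGAC, with 2 matches in Ltbp2, 2 in Tgfb2 and 1 in Ltbp3. The same letters occurred in 42.2% of 32851 mouse windows of this length. Ltbp2 had 2 matches to GGGCGG, the nearer of them in the bases not printed, and 32.7% of windows held these letters. In turn Tgfb2 had TATAAA with its leftmost base at position -31 from the start site. These letters occurred at any position, on either strand, in 12.4% of windows. None of the 3 windows held TGANTCA (6.75% of all windows) or CATTCC (12.6%). Such matches describe letters and do not show binding.

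Tg hearts differed from WT hearts at most of these genes. Under saline, 6 of the 10 were higher in Tg hearts and 1 was lower, at an adjusted p under 0.05 (edgeR quasi-likelihood test, Benjamini-Hochberg over 11628 genes tested). Of all genes tested, 40.6% were called in that comparison, 20.4% as higher and 20.2% as lower. Under Ang II, 6 of the 10 were higher in Tg hearts and 0 were lower, where 32.8% of all genes were called (16.4% higher, 16.4% lower). Ang II against saline called 5 as higher and 1 as lower in WT hearts, where 18.6% of all genes were called (9.71% higher, 8.87% lower). In Tg hearts it called 1 as higher, where 8.93% of all genes were called (4.88% higher, 4.04% lower), which is 1038 genes, and 656 without Tg Ang II library 715. The single call in Tg hearts is thus close to the share over all genes. The median log2 fold change of the 10 genes was 0.29 for Tg against WT under saline, 0.22 for Tg against WT under Ang II, 0.19 for Ang II in WT and 0.09 for Ang II in Tg. The median over all genes tested was 0.00, -0.01, 0.00 and -0.01 in the same order. The 4 comparisons share groups, so they are not independent of each other.

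Markers of several cell types moved with genotype. Of the fibroblast markers, 5 of 5 were higher in Tg hearts under saline and 3 of 5 under Ang II. Their summed level was 48.4 to 89.3 scaled FPKM in Tg Ang II, 58.6 to 107 in Tg saline, 36.7 to 68.1 in WT Ang II and 40.5 to 57.1 in WT saline hearts. Macrophage markers were higher in 6 of 6 under saline and 4 of 6 under Ang II, with sums of 103 to 219 in Tg Ang II, 132 to 390 in Tg saline, 71.3 to 207 in WT Ang II and 86.2 to 111 in WT saline hearts. Endothelial markers were lower in Tg hearts in 6 of 6 under both treatments, with sums of 80.9 to 123, 77.6 to 109, 94.8 to 165 and 109 to 173 in the same order of groups. Mural cell markers were lower in 5 of 6 and higher in 1 under saline, and lower in 4 and higher in 1 under Ang II. Of 6 cardiomyocyte markers, 4 were lower in Tg hearts under saline, and 4 were lower and 1 higher under Ang II. No marker of these 5 lists was near 0 in every library. Atrial, epicardial, adipocyte and Schwann cell markers were too low to be tested (summed levels of at most 3.24 for any of these lists), with the atrial gene Bmp10 and the adipocyte gene Plin1 at or near 0 throughout. Of 4 erythroid markers, 0 were called by edgeR in these 4 comparisons, and 0 had an unadjusted p under 0.05 in them.

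In whole tissue, fewer cells of a type and less RNA per cell cannot be told apart, and the part of these cell types in the results that follow was not tested. Ang II called fewer markers. In WT hearts it called the fibroblast marker Pi16 as higher (log2 fold change 0.82), but the median of the 5 fibroblast markers was -0.03. Tcf21 stood at -0.26, Pdgfra at -0.15, Dpt at -0.03 and Col15a1 at 0.34, all uncalled. The macrophage marker C1qb was called as higher (0.39), and the endothelial marker Kdr (-0.39) and the mural marker Abcc9 (-0.32) as lower. In Tg hearts Ang II called 3 of 5 fibroblast markers (Tcf21, Dpt and Pdgfra) as lower. The others, Pi16 (0.26) and Col15a1 (0.32), lay on the higher side and were uncalled. The mural marker Kcnj8 (-0.40) was called as lower and the cardiomyocyte marker Ryr2 (0.25) as higher.

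**Figure D1:**
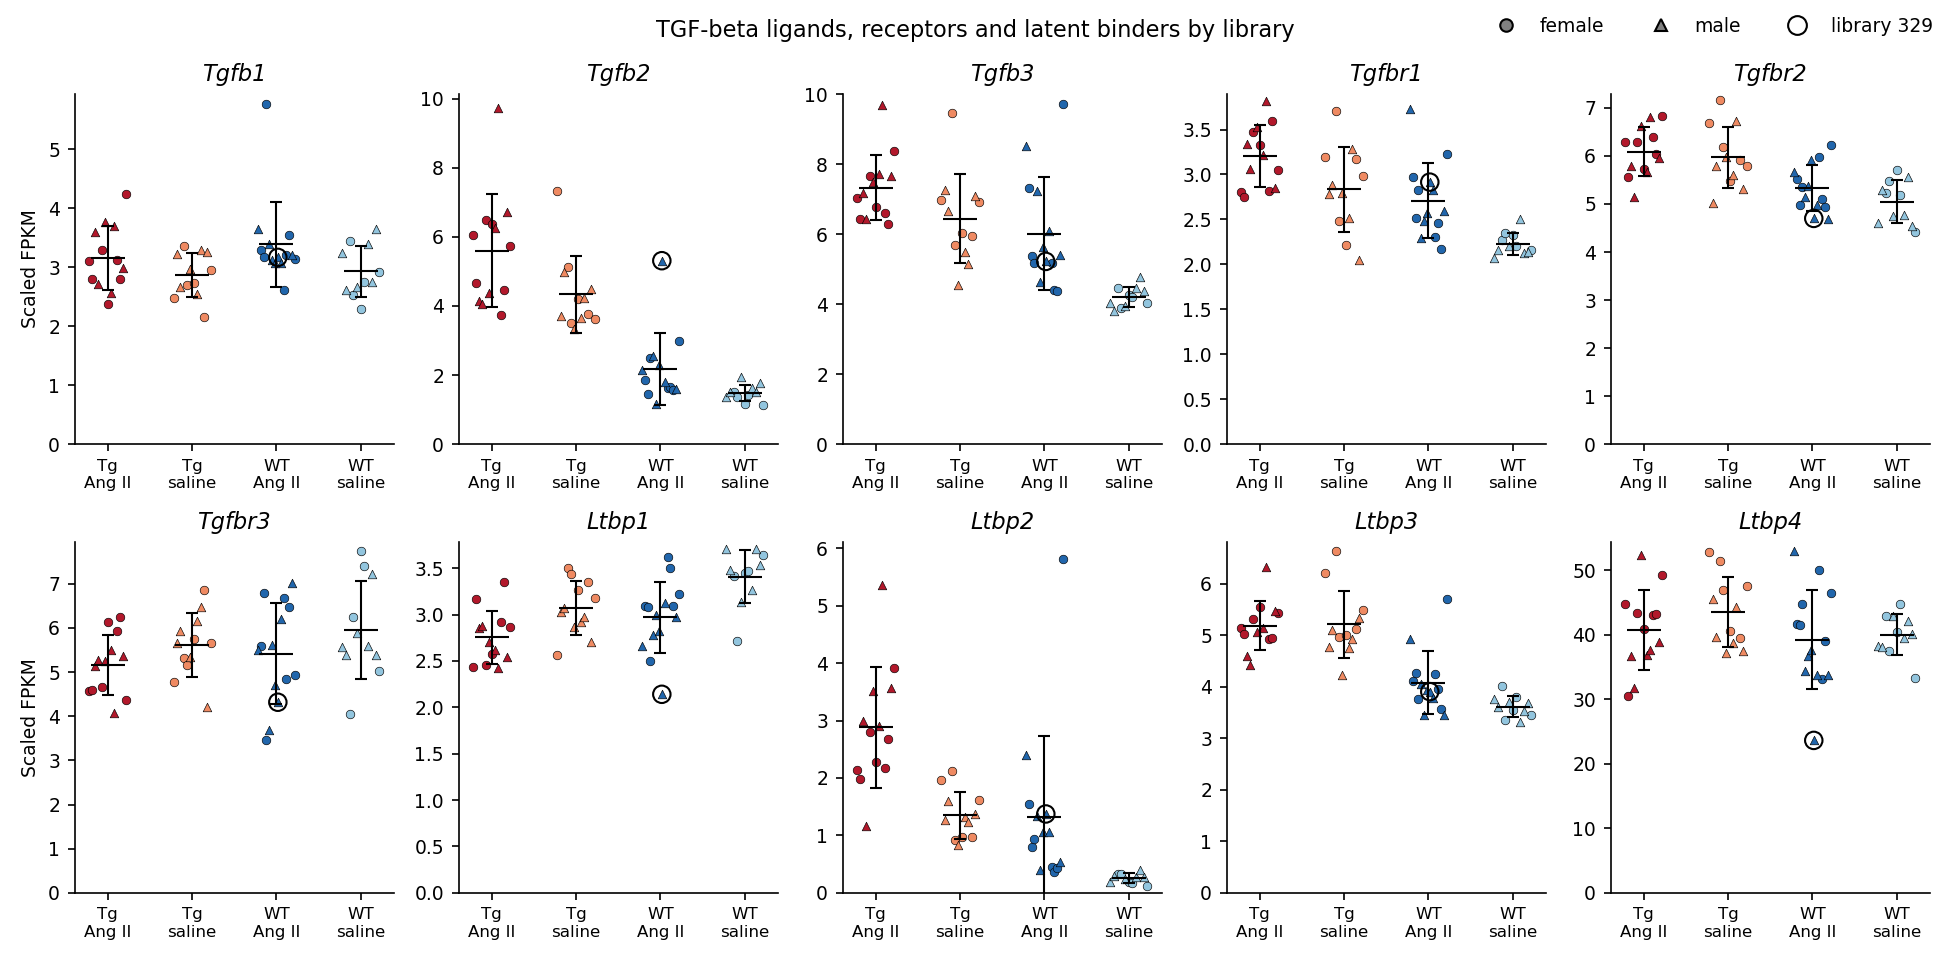
Scaled FPKM (y axis, linear, starting at 0) of each gene in each of the 50 libraries, with females as circles, males as triangles, and mean and SD as bars (the lower bar of Ltbp2 in WT Ang II hearts runs under 0 and is clipped). Tgfb2, Ltbp2 and Ltbp3 stand higher in all 12 Tg saline libraries than in any WT saline library, and library 329, ringed, lies at 5.31 for Tgfb2. The share of all genes that separate in this way was not counted.

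Among the ligands, Tgfb2 set the genotypes apart most. Tgfb2, the isoform that depends most on betaglycan to reach its receptors, lies on chromosome 1 (186622792 to 186705989, minus strand, GRCm38). Its lowest, median and highest levels were 3.74, 5.72 and 9.72 scaled FPKM in Tg Ang II hearts and 3.33, 3.995 and 7.33 in Tg saline hearts. They were 1.18, 1.82 and 5.31 in WT Ang II hearts and, in WT saline hearts, 1.15, 1.51 and 1.96. Under saline the groups did not overlap, since all 12 Tg libraries lay above the highest WT library. The share of all genes that separate in this way was not counted, here or for the genes below. In that comparison 40.6% of all genes were called. Under Ang II the overlap came from the WT side, where library 329 stood far above the others of its group. The log2 fold change for Tg against WT was 1.56 ± 0.17 under saline (SE, edgeR adjusted p = 1.3e-09), or 2.94-fold, and 1.37 ± 0.16 under Ang II (adjusted p = 4.5e-09). Without libraries 329 and 847 the difference under Ang II was 1.51, and all 12 remaining Tg Ang II libraries lay above the highest of 13 WT Ang II libraries, at 3.00 scaled FPKM.

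Ang II went with higher Tgfb2 in WT hearts, by a log2 fold change of 0.56 ± 0.17 (edgeR adjusted p = 0.013). Only 6 of the 14 WT Ang II libraries exceeded every WT saline library. That difference was 0.40 without libraries 329 and 847 (adjusted p = 0.048), and 0.31 with an adjusted p of 0.062 by limma on log2(FPKM + 1). In Tg hearts the same contrast was 0.38 ± 0.16 and missed the threshold (edgeR adjusted p = 0.14).

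Tgfb3, a ligand best known from palate and lung development, lies on chromosome 12 (86056745 to 86079041, minus strand). It stood at 6.29, 7.18 and 9.68 scaled FPKM (lowest, median and highest) in Tg Ang II hearts and at 4.56, 6.34 and 9.45 in Tg saline hearts. The WT Ang II values were 4.38, 5.39 and 9.72, and the WT saline values 3.80, 4.20 and 4.79. WT saline hearts formed a tight low group, and 11 of 12 Tg saline and 11 of 14 WT Ang II libraries lay above all of it. Tgfb3 rose in Tg over WT hearts under saline (log2 fold change 0.61 ± 0.11, edgeR adjusted p = 1.1e-05) and under Ang II (0.29 ± 0.10, adjusted p = 0.019). It also rose with Ang II in WT hearts (0.52 ± 0.10, edgeR adjusted p = 0.00035), while in Tg hearts the value was 0.19 ± 0.10 (adjusted p = 0.24).

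Tgfb1, the isoform most often studied in cardiac fibrosis, was not called in any of these comparisons. The gene lies on chromosome 7 (25687002 to 25705077, plus strand). Its levels were 2.37, 3.11 and 4.24 scaled FPKM (lowest, median and highest) in Tg Ang II hearts and 2.16, 2.85 and 3.36 in Tg saline hearts. In WT Ang II hearts they were 2.62, 3.19 and 5.77, and in WT saline hearts 2.29, 2.75 and 3.64. All 4 groups overlapped, and the library at 5.77 stood alone. Tg against WT gave -0.03 under saline, with a 95% interval of -0.22 to 0.16, and -0.10 under Ang II, with an interval of -0.27 to 0.08, so a change of the size seen for Tgfb2 lies outside both. Ang II against saline gave 0.21 ± 0.09 in WT hearts (edgeR adjusted p = 0.10) and 0.15 ± 0.09 in Tg hearts (adjusted p = 0.36). Without the library at 5.77, number 165, the value in WT hearts was 0.13, and without WT saline library 239 it was 0.26 and passed the threshold (adjusted p = 0.048).

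The make-up of the ligand messages is given here as a description, with no test. FPKM is per length, so levels of different genes can be added. The 3 ligands summed to 16.1 ± 2.68 scaled FPKM in Tg Ang II hearts (mean ± SD), 13.6 ± 2.13 in Tg saline hearts, 11.6 ± 2.21 in WT Ang II hearts and 8.62 ± 0.721 in WT saline hearts. Tgfb2 made up 34.3% ± 5.05 of that sum in Tg Ang II hearts, 31.6% ± 4.56 in Tg saline hearts, 18.4% ± 6.23 in WT Ang II hearts and 17.2% ± 2.29 in WT saline hearts. Without libraries 329 and 847 this share was 34.0% ± 5.09 in Tg Ang II hearts and 16.8% ± 2.20 in WT Ang II hearts, since library 329 stood at 38.8%. Over all libraries Tgfb1 made up 19.9%, 21.3%, 29.8% and 33.9% in the same groups, and Tgfb3 was the most abundant ligand in each, at 45.8%, 47.1%, 51.8% and 48.9%. The highest Tgfb2 share in a WT saline heart, 22.8%, lay below the lowest share in Tg saline hearts, 26.2%.

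**Figure D2:**
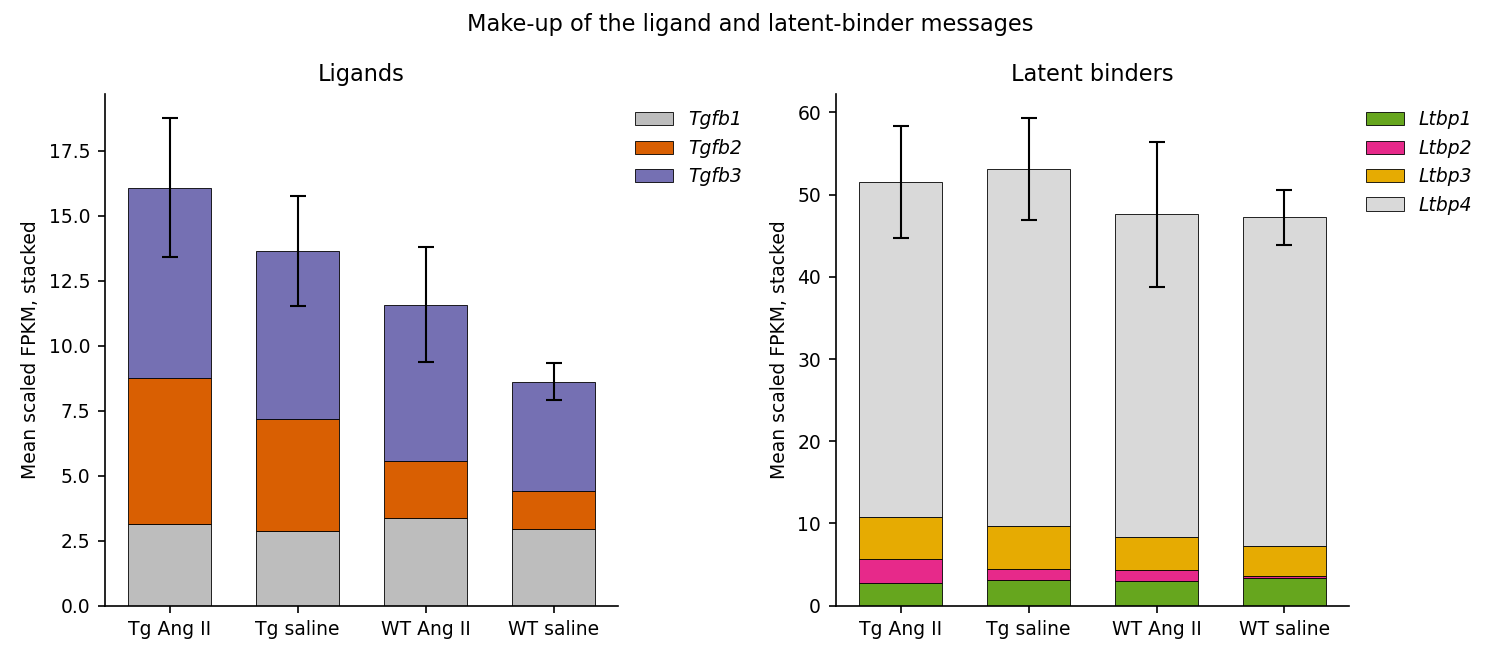
Mean scaled FPKM (y axis, linear, stacked from 0) of the ligands (left) and the latent binders (right) in the 4 groups, with bars for the SD of the sum. The Tgfb2 band takes 31.6% of the ligand sum in Tg saline hearts against 17.2% in WT saline hearts, and Ltbp4 fills most of every binder column.

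The receptors moved less. Tgfbr1, the type I receptor kinase that phosphorylates SMAD2 and SMAD3, lies on chromosome 4 (47353222 to 47414931, plus strand). It stood at 2.76, 3.22 and 3.81 scaled FPKM (lowest, median and highest) in Tg Ang II hearts and at 2.04, 2.84 and 3.71 in Tg saline hearts. In WT Ang II hearts it stood at 2.17, 2.58 and 3.73, and in WT saline hearts at 2.07, 2.21 and 2.50. The WT saline libraries were again the tightest and had the lowest median, with 9 of 12 Tg saline libraries above all of them and 1 below all of them. Tgfbr1 rose in Tg over WT hearts by 0.34 ± 0.08 under saline (log2 fold change, edgeR adjusted p = 0.00042) and by 0.25 ± 0.07 under Ang II (adjusted p = 0.0065). With Ang II it rose by 0.28 ± 0.08 in WT hearts (edgeR adjusted p = 0.0072), and the value in Tg hearts was 0.18 ± 0.07 (adjusted p = 0.13).

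Tgfbr2, the type II kinase that binds the ligand and activates the type I receptor, lies on chromosome 9 (116084293 to 116175360, minus strand). Its levels were 5.14, 6.04 and 6.84 scaled FPKM (lowest, median and highest) in Tg Ang II hearts and 5.01, 5.85 and 7.16 in Tg saline hearts. In WT Ang II hearts they were 4.69, 5.25 and 6.22, and in WT saline hearts 4.41, 5.19 and 5.71. The genotypes overlapped, with 8 of 12 Tg saline libraries above the highest WT saline library. Tgfbr2 was higher in Tg hearts by 0.24 ± 0.06 under saline (log2 fold change, edgeR adjusted p = 0.00054) and by 0.19 ± 0.05 under Ang II (adjusted p = 0.0026). Ang II against saline gave 0.07 in WT hearts and 0.03 in Tg hearts, with upper 95% limits of 0.18 and 0.13, and neither was called.

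Tgfbr3, betaglycan, a membrane proteoglycan without a kinase that presents ligand to the type II receptor, lies on chromosome 5 (107106570 to 107289629, minus strand). Its medians were 5.26 scaled FPKM in Tg Ang II hearts, 5.66 in Tg saline hearts, 5.55 in WT Ang II hearts and 5.59 in WT saline hearts. Single libraries ran between 4.08 and 6.25 in Tg Ang II, 4.22 and 6.85 in Tg saline, 3.45 and 7.02 in WT Ang II and 4.05 and 7.73 in WT saline hearts, so the groups overlapped throughout. The log2 fold changes were -0.09, -0.07, -0.14 and -0.12 for Tg against WT under saline, Tg against WT under Ang II, Ang II in WT and Ang II in Tg. The lowest edgeR adjusted p of these was 0.36.

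Of the latent binders, Ltbp2 had the largest difference of all 10 genes under saline. The LTBP2 protein, unlike the other three, is not known to hold latent TGF-beta and associates with elastic microfibrils. The gene lies on chromosome 12 (84783212 to 84876532, minus strand). Its lowest, median and highest levels were 1.16, 2.80 and 5.37 scaled FPKM in Tg Ang II hearts and 0.840, 1.29 and 2.12 in Tg saline hearts. In WT Ang II hearts they were 0.368, 0.993 and 5.82, and in WT saline hearts 0.114, 0.266 and 0.391. WT saline hearts stood apart at the bottom, below all 12 Tg saline and 13 of 14 WT Ang II libraries. A single WT Ang II heart, library 779, exceeded every Tg library.

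Ltbp2 rose 5.35-fold in Tg over WT hearts under saline (log2 fold change 2.42 ± 0.34, edgeR adjusted p = 2.4e-07), which ranked 19 among the 11628 genes ordered from the largest rise. WT saline hearts, at most 0.391 scaled FPKM, lay under the filter level of 1. Ltbp2 was thus tested because of its levels in the other groups, which limits both ranks given here. It rose 2.20-fold in Tg over WT hearts under Ang II (1.14 ± 0.29, edgeR adjusted p = 0.0017), where all 13 Tg libraries lay above the WT median but 0 above the highest WT library. Ang II raised it 5.21-fold in WT hearts (2.38 ± 0.34, edgeR adjusted p = 2.2e-06, rank 6), with a log2 fold change of 1.9 without library 779. In Tg hearts it rose 2.14-fold with Ang II (1.10 ± 0.30, edgeR adjusted p = 0.016), and 11 of 13 Tg Ang II libraries lay above the highest Tg saline library. In females alone Ltbp2 was not called for Tg against WT under Ang II (0.80, edgeR adjusted p = 0.23) or for Ang II in Tg (0.84, adjusted p = 0.60). Ltbp2 was the only one of the 10 genes called for Ang II in Tg hearts.

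Ltbp3, which binds latent TGF-beta and is known from bone and tooth development, lies on chromosome 19 (5740904 to 5758532, plus strand). It stood at 4.43, 5.14 and 6.34 scaled FPKM (lowest, median and highest) in Tg Ang II hearts and at 4.23, 5.06 and 6.65 in Tg saline hearts. Values in WT Ang II hearts were 3.45, 3.95 and 5.71, and in WT saline hearts 3.32, 3.60 and 4.02. All 12 Tg saline libraries lay above every WT saline library, and all 13 Tg Ang II libraries above the WT Ang II median. Ltbp3 rose in Tg over WT hearts by 0.52 ± 0.06 under saline (log2 fold change, edgeR adjusted p = 8.2e-09) and by 0.34 ± 0.06 under Ang II (adjusted p = 8e-06). With Ang II it was higher by 0.17 ± 0.06 in WT hearts (edgeR adjusted p = 0.040), a call that ended without libraries 329 and 847 (adjusted p = 0.055) and without any of 10 single libraries, with the lowest value without library 779 (0.13, adjusted p = 0.098). The value in Tg hearts was 0.00 ± 0.06.

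Ltbp1, the binder first found in latent complexes, had lower values in Tg hearts and with Ang II. It lies on chromosome 17 (75005568 to 75392512, plus strand). Its levels were 2.42, 2.71 and 3.36 scaled FPKM (lowest, median and highest) in Tg Ang II hearts and 2.57, 3.05 and 3.51 in Tg saline hearts. In WT Ang II hearts they were 2.14, 3.04 and 3.62, and in WT saline hearts 2.72, 3.47 and 3.70. The WT Ang II value of 2.14 was library 329, without which the lowest was 2.50. The groups overlapped, although 11 of 12 Tg saline libraries lay below the WT saline median. Ltbp1 fell by 0.15 on the log2 scale in Tg against WT hearts under saline (SE 0.06, edgeR adjusted p = 0.044), a call that depended on single libraries and was lost without any of 15 of the 50. The largest such shift came without Tg saline library 153 (-0.12, adjusted p = 0.10), and in females alone the value was -0.05 (adjusted p = 0.74). With scaling by library size alone it was -0.01. With Ang II it fell by 0.20 in WT hearts (SE 0.06, edgeR adjusted p = 0.013) and stood at -0.16 ± 0.06 in Tg hearts (adjusted p = 0.074). The Tg value was called without library 153 (adjusted p = 0.029), 329 (0.050) or 783 (0.040). Under Ang II, Tg against WT gave -0.11 (edgeR adjusted p = 0.13), which was called without library 165 (0.047) or 329 (0.037).

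Ltbp4, known from elastic fibre assembly, was the most abundant of the 10 genes and was called in none of these comparisons. It lies on chromosome 7 (27305136 to 27337692, minus strand). Single libraries ran between 30.5 and 52.3 scaled FPKM in Tg Ang II (median 40.9), 37.2 and 52.9 in Tg saline (42.4), 23.6 and 52.9 in WT Ang II (38.4) and 33.3 and 44.7 in WT saline hearts (40.2). The 4 groups overlapped, and the low value of 23.6 was library 329, without which the lowest WT Ang II value was 33.2. Its log2 fold changes lay between -0.10 and 0.12, with 95% limits of -0.26 and 0.28 at the outside. With scaling by library size alone it was called for Tg against WT under saline (0.26, edgeR adjusted p = 0.027). Ltbp4 made up 78.8% of the binder sum in Tg Ang II hearts, 81.8% in Tg saline hearts, 82.2% in WT Ang II hearts and 84.5% in WT saline hearts, where Ltbp2 made up 5.55%, 2.52%, 2.64% and 0.536%.

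**Figure D3:**
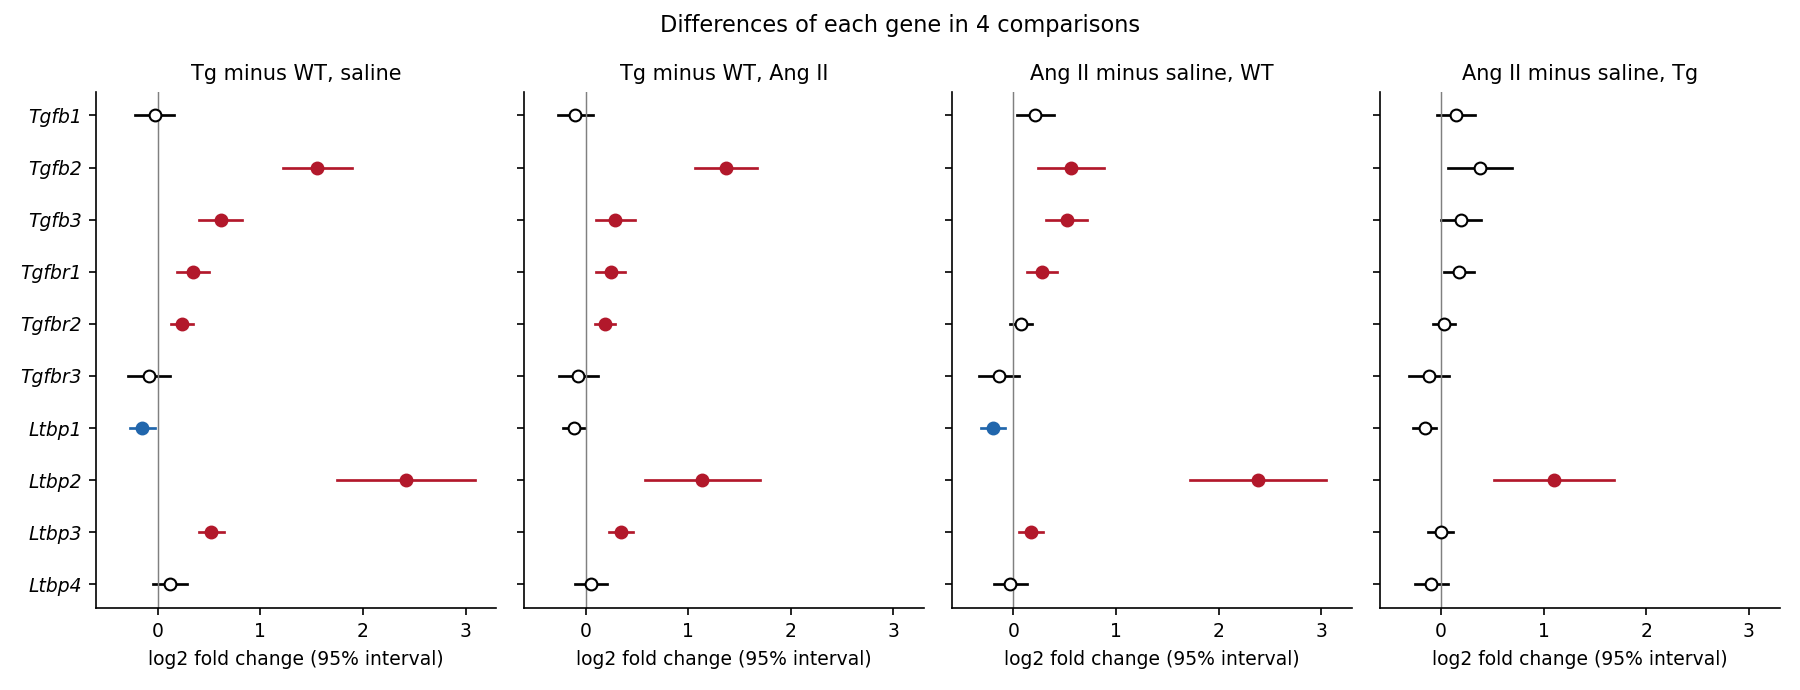
Log2 fold change with its 95% interval (x axis) of each of the 10 genes (rows) in the 4 comparisons, with filled points for adjusted p under 0.05, red for higher and blue for lower. Ltbp2 lies farthest to the right for Tg against WT under saline (2.42) and for Ang II in WT (2.38), and Tgfb2 for Tg against WT under Ang II (1.37).

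Whether Ang II acted differently in the 2 genotypes was tested as an interaction. None of the 10 genes was called by edgeR, and none by DESeq2 or limma, where edgeR called 0.043% of all genes tested (0.0086% higher, 0.0344% lower). The edgeR count over all genes was 5, and it ran between 2 and 21 when single libraries were left out, with the highest count without WT saline library 239. At an unadjusted p under 0.05, edgeR gave 3 of the 10, and 9.77% of all genes tested. These were Ltbp2 (-1.28 ± 0.44 on the log2 scale, unadjusted p = 0.0053, adjusted p = 0.31), Tgfb3 (-0.32 ± 0.14, unadjusted p = 0.030, adjusted p = 0.47) and Ltbp3 (-0.18 ± 0.09, unadjusted p = 0.044, adjusted p = 0.50). A negative value means a smaller Ang II difference in Tg than in WT hearts. Without library 779 the Ltbp2 value was -0.80. More of the 10 genes were called for Ang II in WT than in Tg hearts, but the difference between the genotypes passed the adjusted threshold for none of them.

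Between females and males, 0 of the 10 genes were called by edgeR, DESeq2 or limma, and 4.42% of all genes tested were called by edgeR (1.86% higher, 2.56% lower). At an unadjusted p under 0.05 there were 2 of the 10, close to the share of all genes tested, 19.3%. These were Ltbp4, with a log2 fold change of 0.13 for female against male (unadjusted p = 0.027, edgeR adjusted p = 0.19), and Ltbp1 with 0.09 (unadjusted p = 0.043, adjusted p = 0.24). The sex by Ang II and sex by genotype interactions called 0 of the 10 genes in edgeR, and 0 of all 11628. At an unadjusted p under 0.05 they gave 0 of the 10 genes, and 4.22% and 3.56% of all genes. Ltbp2 in Tg Ang II hearts averaged 2.57 ± 0.667 scaled FPKM in females (n = 7) and 3.25 ± 1.36 in males (n = 6). Taken in each sex alone, Tg against WT under saline was 2.66 for Ltbp2 and 1.79 for Tgfb2 in females, and 2.18 and 1.32 in males, with edgeR adjusted p at or below 0.0013 in each.

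The other genes of the pathway were read from lists of 5 roles, which were chosen with earlier results of these data known. Among genes that free or anchor latent TGF-beta, 8 of 14 tested were higher in Tg hearts under saline and 0 were lower, where 20.4% of all genes were called higher and 20.2% lower. Itgb5, an integrin subunit that pairs with Itgav, rose by 0.63 ± 0.06 (log2 fold change, edgeR adjusted p = 2.1e-11). Adamtsl2, a microfibril protein that binds LTBP1, rose by 1.79 ± 0.22 (adjusted p = 1.7e-08), and the gelatinase Mmp2 by 0.73 ± 0.12 (adjusted p = 3.2e-06). Emilin1, an elastic fibre protein that limits processing of the TGF-beta precursor, rose by 0.50 ± 0.11 (edgeR adjusted p = 0.00043). Under Ang II, 7 of 14 were higher in Tg hearts and 0 lower (16.4% and 16.4% of all genes), and with Ang II 5 were higher and 1 lower in WT hearts and 1 was higher and 1 lower in Tg hearts, where 18.6% and 8.93% of all genes were called in WT and Tg hearts. The lower gene was Itgb6, an epithelial integrin subunit, at -0.70 in WT and -0.57 in Tg hearts.

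Co-receptors split. Under saline, Sdc2, a heparan sulphate proteoglycan, was higher in Tg hearts by 0.31 (log2 fold change, edgeR adjusted p = 1e-05). The endothelial co-receptor Eng fell by 0.51 (adjusted p = 3e-07), and so did Nrp1, a co-receptor of vascular growth factors, by 0.36 (adjusted p = 0.00089), which left 1 of 4 tested higher and 2 lower, where 40.6% of all genes were called. Their falls stood beside lower endothelial markers in the same hearts. Under Ang II, 1 of 4 was higher and 2 were lower in Tg hearts, where 32.8% of all genes were called. Ang II itself called 1 of 4 as lower in WT hearts (Nrp1), where 18.6% of all genes were called. It called 0 of 4 in Tg hearts, where 8.93% of all genes were called. At an unadjusted p under 0.05, edgeR gave 1 of 4 in Tg hearts (Acvrl1, -0.11), and 23.4% of all genes.

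Signal transducers changed little. Of 8 tested, 0 were higher and 1 was lower in Tg hearts under saline, where 40.6% of all genes were called. This was Smad2, a receptor-activated SMAD, which fell by 0.21 on the log2 scale (edgeR adjusted p = 0.0017). Smad3, its partner, stood at 0.15 and was not called (adjusted p = 0.11). Under Ang II, 3 were higher in Tg hearts and 0 lower, where 32.8% of all genes were called. These were the kinase Map3k7 (0.15), Trim33 (0.15) and the common-mediator SMAD Smad4 (0.12). Ang II called 2 as lower in WT hearts, where 18.6% of all genes were called. In Tg hearts it called 2 as higher and 1 as lower, where 8.93% of all genes were called. The lower gene in Tg hearts was Smad3 at -0.34 (edgeR adjusted p = 0.0029).

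Of the inhibitors, 6 of 14 tested were higher in Tg hearts under saline and 0 lower. The share called in either direction is thus close to that of all genes, 40.6%, of which 20.4% were higher and 20.2% lower. Bgn, a small proteoglycan that binds TGF-beta, rose by 1.11 ± 0.14 (log2 fold change, edgeR adjusted p = 1.1e-08). Cilp, a matrix protein that binds TGF-beta1, rose by 2.35 ± 0.31 (adjusted p = 4.8e-08). The decoy receptor Bambi rose by 0.83 ± 0.12 (edgeR adjusted p = 1.6e-07) and Pmepa1, which holds SMADs away from the receptor, by 0.72 ± 0.10 (adjusted p = 1.8e-07). Smad7, the inhibitory SMAD, stood at -0.05 and was not called. Under Ang II 7 were higher and 1 lower in Tg hearts, where 16.4% of all genes were called higher and 16.4% lower. Ang II called 8 as higher in WT hearts and 3 in Tg hearts, with 0 lower in each. Of all genes, 9.71% and 4.88% were called higher there.

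The listed genes known to be induced by TGF-beta were called higher more often than all genes. The list was chosen with earlier results of these data known, so this excess is a description and not a test of the pathway. Of 12 tested, 11 were higher in Tg hearts under saline, 9 in Tg hearts under Ang II, 8 with Ang II in WT hearts and 3 with Ang II in Tg hearts, and 0 were lower in any, while 20.4%, 16.4%, 9.71% and 4.88% of all genes were called higher in the same comparisons. Their median log2 fold changes were 0.90, 0.56, 0.92 and 0.46 in that order. Ccn2, a matricellular growth factor, rose by 2.16 ± 0.20 in Tg hearts under saline (edgeR adjusted p = 1.4e-11). Timp1, a protease inhibitor, rose by 2.06 ± 0.26 (adjusted p = 2.9e-08), the smooth muscle actin Acta2 by 1.22 ± 0.16 (adjusted p = 7.4e-08), and the matricellular protein Postn by 1.72 ± 0.26 (adjusted p = 9e-07). Ccn2 stood at 49.0 to 118 scaled FPKM in Tg Ang II hearts, 42.9 to 121 in Tg saline hearts, 15.5 to 65.8 in WT Ang II hearts and 9.57 to 22.1 in WT saline hearts, so under saline the genotypes did not overlap. Without library 329 the highest WT Ang II value was 51.5. Fibroblast markers were higher in the same Tg saline hearts, and their part in these rises was not tested.

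**Figure D4:**
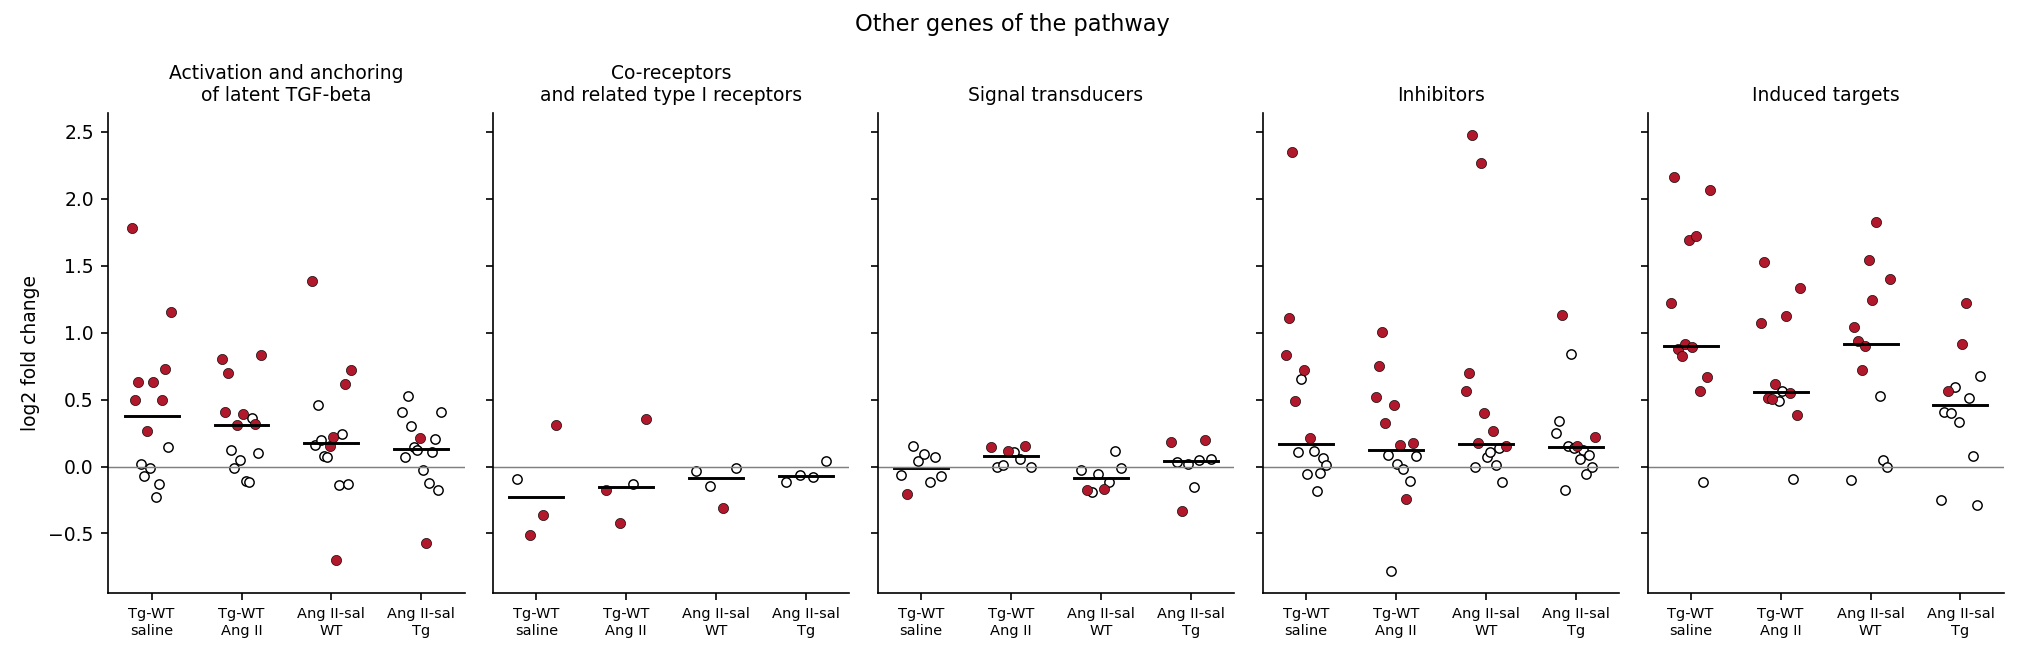
Log2 fold change (y axis) of the tested genes of 5 roles in the 4 comparisons (sal, saline), with filled points for adjusted p under 0.05 and a bar at the median of each list. Induced targets have the highest medians, 0.90 for Tg against WT under saline and 0.92 for Ang II in WT, and signal transducers stay between -0.34 and 0.20.

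Within groups, some of the 10 genes varied together from heart to heart. Clusters of neighbouring library numbers were not taken off, and their part in these correlations was not tested. After the 8 means of genotype, treatment and sex were taken off log2(scaled FPKM + 1), 19 of 45 pairs were positively and 3 negatively correlated over the 50 libraries at an adjusted p under 0.05 (permutation within the 8 cells with 100000 resamples, Benjamini-Hochberg over the pairs). The weakest of these stood at r = 0.37 and -0.47, and of all 67599378 pairs of tested genes 5.31% lay at or above that positive value and 1.61% at or below that negative value. The closest pair was Tgfb3 and Ltbp2, with Pearson r = 0.84 and Spearman rho = 0.77, each with a permutation p of 1e-05, the smallest these resamples can give (adjusted p = 9e-05). Without the 2 libraries farthest out, r was 0.76. Ltbp2 and Ltbp3 had r = 0.81 and rho = 0.68, and r = 0.74 without the 2 farthest libraries. Tgfb3 and Ltbp3 had r = 0.81 and rho = 0.69, and r = 0.71 without them. Each of these had the same permutation p. Tgfb2 varied with the same genes, with r = 0.61 to Ltbp3 (permutation adjusted p = 0.0014) and r = 0.58 to Ltbp2 (adjusted p = 0.00085). Without libraries 329 and 847 these were 0.71 and 0.63.

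Tgfb1 stood outside this set, with r = 0.13 to Tgfb2 (permutation adjusted p = 0.48). The 3 negative pairs were Tgfb2 with Ltbp1 (r = -0.65, permutation adjusted p = 9e-05), Tgfb1 with Tgfbr3 (r = -0.58, adjusted p = 0.0003) and Tgfb2 with Tgfbr3 (r = -0.47, adjusted p = 0.0034). Without libraries 329 and 847 they were -0.57, -0.59 and -0.46 in the same order. A heart with more Tgfb2 than its group thus tended to have less Ltbp1 and Tgfbr3. Several of the weaker pairs missed the threshold by Spearman's rho, namely Tgfb3 with Tgfbr1 (permutation adjusted p = 0.053), Tgfb3 with Tgfbr2 (0.076), Tgfbr1 with Ltbp3 (0.12), Tgfbr1 with Ltbp4 (0.076) and Tgfbr3 with Ltbp1 (0.092). Of the pairs called by r, Tgfbr1 with Ltbp4 was the weakest without the 2 farthest libraries, at r = 0.22.

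Single hearts carry part of this. Library 715, a Tg Ang II male, was highest of its group for Tgfb2 (9.72 scaled FPKM), Tgfb3 (9.68), Tgfbr1 (3.81), Ltbp2 (5.37) and Ltbp3 (6.34). Library 779, a WT Ang II female, was highest of its group for Tgfb3 (9.72), Tgfbr2 (6.22), Ltbp2 (5.82) and Ltbp3 (5.71). Library 162, a Tg saline female, was highest of its group for Tgfb3 (9.45), Tgfbr1 (3.71), Ltbp2 (2.12) and Ltbp3 (6.65). It was also highest for Tgfb1 (3.36), Tgfbr2 (7.16) and Ltbp1 (3.51). In each of these 3 groups the same heart led for Tgfb3, Ltbp2 and Ltbp3.

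The genes most like each member over the 50 libraries, by Pearson r on log2(scaled FPKM + 1), are given as a description, since the libraries share genotype and treatment. Ltbp2 was most like Postn (r = 0.97), Cilp (0.95) and the collagen gene Col8a1 (0.95). With the 8 means taken off, Itgbl1 (0.92), Bgn (0.92) and Postn (0.91) came first. Tgfb3 was most like Cilp (0.92), Serpinf1 (0.91) and the microfibril gene Mfap4 (0.91), and with the means taken off like Comp (0.84), Itgbl1 (0.83) and Mfap4 (0.82). The genes most like Tgfb2 were others, namely Gm49808, Pon2 and Rtn4 (each 0.96), and with the means taken off Rtn4 (0.90), Serpinb1c (0.87) and Lgals3 (0.84), which without libraries 329 and 847 stood at 0.87, 0.82 and 0.79.

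Ltbp3 was most like Itgb5 (r = 0.92), Colec12 (0.92) and Dpysl3 (0.91). Tgfbr2 was most like the intermediate filament gene Vim (0.83), Colec12 (0.80) and Mrc2 (0.80), and Tgfbr1 like Adamts2 (0.82), St6galnac4 (0.82) and Ptpn1 (0.81). For Tgfb1 the closest gene was the cytoskeletal tropomyosin Tpm4 (0.87), followed by Tpm3 (0.80) and Fscn1 (0.80). For Tgfbr3 they were Ubr2 (0.84), Pcnt (0.84) and Stk35 (0.79), and with the means taken off Foxo3 (0.88) led. Over the 50 libraries Ltbp1 was most like Slc36a2, Lgr6 and Smarcd1 (each 0.77), and Ltbp4 like Pkd1 (0.73), Reck (0.71) and D630003M21Rik (0.71). With the means taken off, the closest genes stood at 0.73 for Ltbp1 (Slc36a2), 0.75 for Ltbp4 (Lamc1), 0.65 for Tgfbr1 (Ucp2) and 0.70 for Tgfbr2 (Vim).

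**Figure D5:**
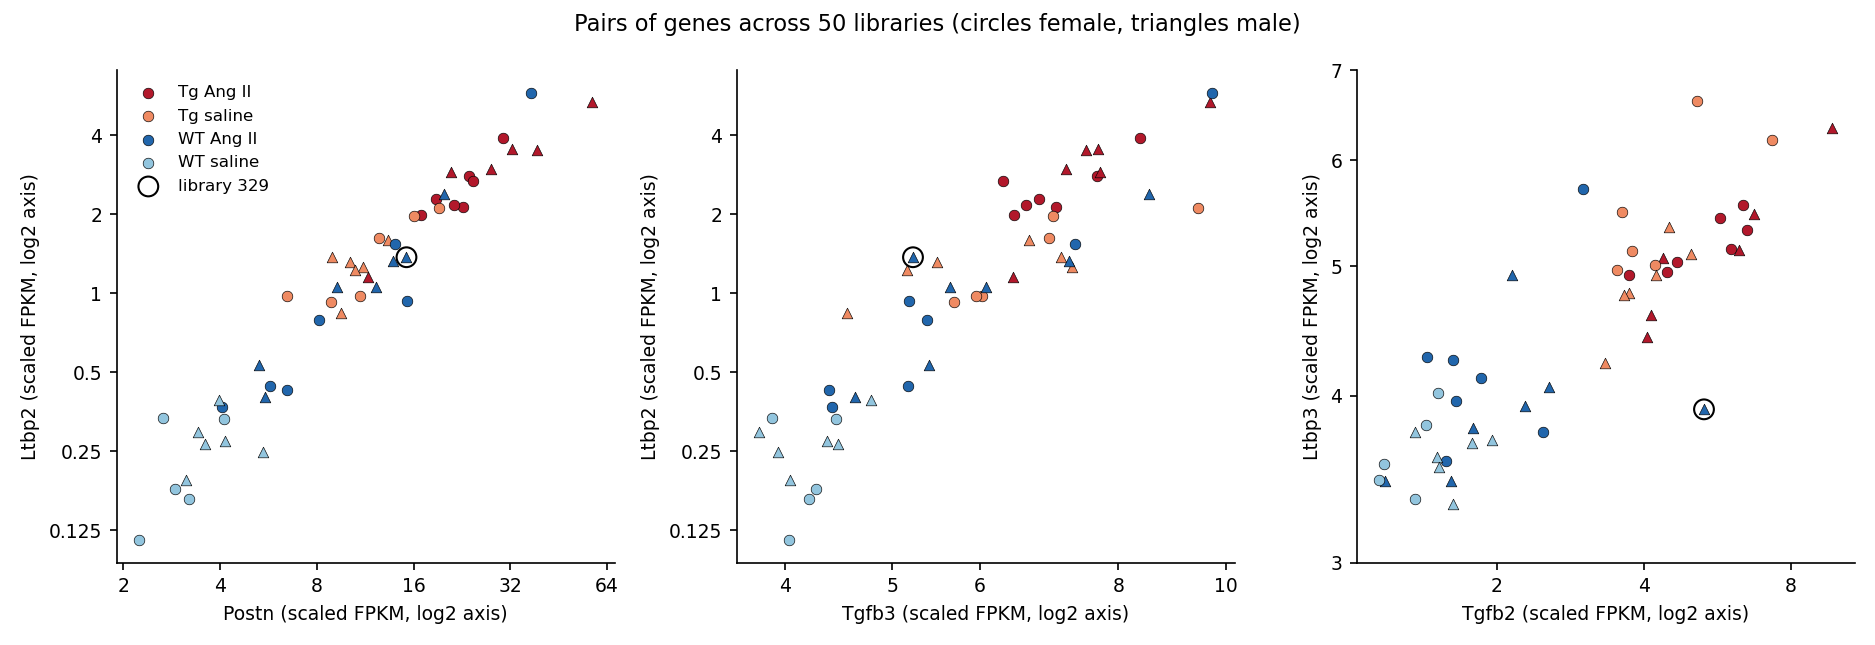
Scaled FPKM of pairs of genes in each of the 50 libraries (all axes on a log2 scale), coloured by group, circles female and triangles male, with library 329 ringed. Ltbp2 follows Postn (r = 0.97 over all libraries) and Tgfb3 (r = 0.84 within groups), and in the plot of Ltbp3 against Tgfb2 the Tg libraries lie at higher Tgfb2 than the WT libraries other than library 329.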

How the data were processed

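Poly(A) RNA from 50 left ventricles was sequenced as paired ends after a dUTP strand-marking preparation, per the labels' protocols. The submitters' processing notes name cutadapt 1.9, FastQC, HISAT2 2.0.4 and StringTie 1.3.4d. The authors deposited, for each of 35717 genes and each library, a whole-number count and an FPKM value, which they had divided by transcript length and library size. The counting tool, its strand setting and the genome build are not given in the sources used here, so reads of genes that overlap on opposite strands may not be told apart. Of the genes, 35599 were found by identifier in GENCODE M21 (GRCm38) and 91.6% of these had identical ends, as had all 10 genes reported, so positions are given on that build. Libraries were matched to labels by number.

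Counts were tested in R 4.3.3 with edgeR 4.0.16 (quasi-likelihood test) on the 11628 genes that reached an FPKM of 1 in 5 or more libraries, all 10 included. Counts were scaled by median of ratios, which takes a typical gene as unchanged. The model held 8 means (genotype, treatment and sex), with the sexes weighted equally, and p-values are two-sided and Benjamini-Hochberg adjusted over all genes tested. Log2 fold changes are given ± SE. Levels are deposited FPKM divided by a median-of-ratios factor (0.776 to 1.14). The script was tested on simulated data. Alternatives were TMM and library-size scaling, other filters, DESeq2 1.42.0, limma 3.58.1 (pseudocounts 1 and 0.1), other designs, each sex alone, and leaving libraries out.

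Genes named are all 10 members, up to 4 called genes with the smallest adjusted p of each pathway list, the 3 genes most like each member, and the genes Larp6, Postn, Ccn2, Smad2, Smad3, Smad4 and Smad7. Others (Itgb6, Trim33, Acvrl1, Pi16, Col15a1, Bmp10, Plin1, C1qb, Tcf21, Pdgfra, Dpt, Kdr, Abcc9, Kcnj8 and Ryr2) were added once their values were known. The members, lists and thresholds were chosen with earlier results of these data known.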

Additional observations from a re-analysis of the deposited data

Results flagged for a closer look

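Within each of the 8 cells of genotype, treatment and sex, a library was looked at again when its gap to the nearest other, over the whole range of the cell, passed Dixon's 95% limit. This was met in 13 of 80 gene and cell combinations, where chance flags about 1 in 20. All values are scaled FPKM.

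A pair of hearts among the WT Ang II females stood far above the rest. Library 779 had 5.82 for Ltbp2, where the other 6 lay between 0.368 and 1.55, and 5.71 for Ltbp3, where the others lay between 3.58 and 4.27. Library 165 had 5.77 for Tgfb1, against 2.62 to 3.54 in the others. Among WT Ang II males, library 329 had 5.31 for Tgfb2 (others 1.18 to 2.56), and this is the library labelled WT with Larp6 in the Tg range. Library 159 of the same cell had 4.93 for Ltbp3 (others 3.45 to 4.06).

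In Tg Ang II hearts, library 848 had 3.92 for Ltbp2 among the females (others 1.99 to 2.80). Among the males, library 715 had 4.08 for Tgfbr3 (others 5.14 to 5.51), and library 326 had 52.3 for Ltbp4 (others 31.8 to 38.9). In Tg saline females, library 162 had 9.45 for Tgfb3 (others 5.69 to 6.99) and library 153 had 2.57 for Ltbp1 (others 3.17 to 3.51). In WT saline hearts, library 332 had 2.72 for Ltbp1 (others 3.41 to 3.64), library 774 had 2.50 for Tgfbr1 (others 2.07 to 2.21) and library 776 had 7.22 for Tgfbr3 (others 5.38 to 5.90).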

How the results depend on the processing

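The calls of Ltbp2 and Tgfb2 for Tg against WT under saline held under every alternative that tested them. Under library-size scaling the median of all genes moved by 0.14 on the log2 scale for Tg against WT under saline, and values there are relative to it. The number of the 10 genes called for Tg against WT under saline was 4 under the stricter filter, which tested 6 of them, and that filter left 2 for Ang II in WT and 0 in Tg. Over all genes it called 2453, 1242 and 735 in that order, with fewer genes tested. In females alone 2 were called for Tg against WT under Ang II, 1 for Ang II in WT and 0 in Tg. In males alone 3 were called for Tg against WT under Ang II and 3 for Ang II in WT, with fewer libraries in each fit. Calls over all genes fell too. For Tg against WT under Ang II they were 2181 in females and 2015 in males, against 3814 in all libraries. For Ang II in WT they were 665 and 590, against 2160. For female against male, 1 (Ltbp1) was called under library-size scaling. Leaving out single libraries gave 1 to 2 for Ang II in Tg. Over all genes, Ang II in Tg called 1038, against 6 in females alone, 516 in males alone and 598 with clusters of library numbers as a term, so calls and misses in Tg hearts depend on these choices. The interaction called 5 of all genes, against 40 by DESeq2 and 2 to 21 without single libraries, and female against male 514, against 1223 under library-size scaling. Depth limits Ltbp2 most, with as few as 67 fragments in a library.

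Signs that turned were all of uncalled values near 0. Under library-size scaling they were Tgfb1 at 0.11 and Tgfbr3 at 0.055 for Tg against WT under saline, Tgfbr3 at 0.022 under Ang II, Ltbp4 at 0.040 for Ang II in WT and Ltbp3 at 0.0083 in Tg. The interaction was then -0.033 for Tgfbr3 and -0.010 for Ltbp1, and female against male 0.011 for Tgfb1, 0.053 for Tgfb3 and 0.017 for Ltbp2. In females alone Ltbp4 was -0.0063 for Tg against WT under Ang II and 0.091 for Ang II in WT, Tgfbr2 was -0.0094 for Ang II in Tg, and the interaction of Ltbp1 was -0.11. In males alone Ltbp3 was 0.092 for Ang II in Tg, and the interaction was 0.019 for Tgfb1, -0.00011 for Tgfbr3 and 0.10 for Ltbp4. With clusters of library numbers as a term, Ltbp3 was 0.047 for Ang II in Tg, and the interaction was -0.026 for Tgfbr3 and -0.027 for Ltbp1. Without libraries 329 and 847, Ltbp4 was 0.0088 for Ang II in WT, the interaction of Tgfbr3 was -0.011, and female against male was -0.0053 for Tgfbr1. With no filter Ltbp3 was 0.0030 for Ang II in Tg and Tgfbr1 -0.0043 for female against male, which was -0.0042 with sex as an additive term, and Tgfb3 was 0.011 under the stricter filter.

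Over fits that left out a single library, values ran between -0.062 and 0.016 for Tgfb1 in Tg against WT under saline, -0.090 and 0.0088 for Ltbp4 with Ang II in WT, and -0.038 and 0.023 for Ltbp3 with Ang II in Tg. The interaction ran between -0.12 and 0.011 for Tgfb1 and between -0.032 and 0.077 for Tgfbr3. Female against male ran between -0.043 and 0.022 for Tgfb3, -0.017 and 0.023 for Tgfbr1, and -0.28 and 0.036 for Ltbp2. The cause of these shifts was not tested. No paired analysis was possible because no replicate number is shared between groups.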
